A study of Homo sapiens with 4 samples.

Results

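The leukocyte immunoglobulin-like receptors (LILR) form a cluster of related genes on chromosome 19, and the accessibility of this cluster was followed in HL-60 cells given all-trans retinoic acid (ATRA). All 10 receptor genes looked for were found on chromosome 19, out of 20163 protein-coding genes of the annotation: the inhibitory LILRB1, LILRB2, LILRB3, LILRB4 and LILRB5 and the activating LILRA1, LILRA2, LILRA4, LILRA5 and LILRA6. Peaks belonged to the cluster when they overlapped a receptor gene or the 20 kb on either side, and the overlapping stretches were merged into 2 windows, chr19:54700147-54870433 (170.3 kb, from LILRB3 and LILRA6 through LILRB5, LILRB2 and LILRA5 to LILRA4) and chr19:55064387-55201810 (137.4 kb, with LILRA2, LILRA1, LILRB1 and LILRB4), in hg19. Peaks of the 4 libraries that overlapped each other by at least 1 bp were joined into regions, and the windows held 30 of the 78063 regions found in all.

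The measurement was ATAC-seq, in which the Tn5 transposase inserts adapters where DNA is open, on HL-60, a human promyelocytic leukemia line that matures toward granulocytes under ATRA. The 2 ATRA libraries came from cells kept in 1 µM ATRA for 4 days and the 2 control libraries from cells kept in ethanol, the solvent, for the same time. The methods describe independent biological replicates of this single line, so the spread below is that between cultures of HL-60. In bulk cells, a site open in more cells and a site more open in each cell cannot be told apart.

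Receptors of this family sit on myeloid and lymphoid cells. LILRB proteins carry inhibitory tyrosine motifs in their tails that recruit phosphatases such as SHP-1 (gene PTPN6), whereas most LILRA proteins have short tails and signal through the Fc receptor gamma chain (gene FCER1G) and the kinase SYK. Several of them, with LILRB1 and LILRB2 the best studied, bind class I HLA molecules, and the genes arose by duplication, so their DNA is much alike.

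That likeness is visible in the bases that precede the starts. For the 5 receptors with a peak at a start in both ATRA libraries or, for LILRB1, with a start peak in ATRA replicate 2 alone, the 200 bases before the annotated exon at the peak are shown on the strand of the gene, read from GRCh37, another name of hg19. They lie at chr19:54785040-54785239 (minus strand) for LILRB2, chr19:55141661-55141860 (plus strand) for LILRB1, chr19:55104847-55105046 (plus strand) for LILRA1, chr19:55084187-55084386 (plus strand) for LILRA2 and chr19:54824437-54824636 (minus strand) for LILRA5. Capitals mark matches to the transcription factor words listed further on.
LILRB2: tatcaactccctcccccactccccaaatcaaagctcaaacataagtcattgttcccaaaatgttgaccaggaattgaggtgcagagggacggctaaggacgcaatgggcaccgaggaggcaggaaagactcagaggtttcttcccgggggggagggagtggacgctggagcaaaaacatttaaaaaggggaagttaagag
LILRB1: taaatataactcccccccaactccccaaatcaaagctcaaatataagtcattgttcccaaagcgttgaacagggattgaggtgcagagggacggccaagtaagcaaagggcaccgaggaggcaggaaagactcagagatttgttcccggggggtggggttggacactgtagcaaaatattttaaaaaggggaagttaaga
LILRA1: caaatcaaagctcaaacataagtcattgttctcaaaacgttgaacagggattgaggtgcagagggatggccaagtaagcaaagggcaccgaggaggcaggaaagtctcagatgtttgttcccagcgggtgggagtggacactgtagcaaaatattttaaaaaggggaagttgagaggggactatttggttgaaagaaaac
LILRA2: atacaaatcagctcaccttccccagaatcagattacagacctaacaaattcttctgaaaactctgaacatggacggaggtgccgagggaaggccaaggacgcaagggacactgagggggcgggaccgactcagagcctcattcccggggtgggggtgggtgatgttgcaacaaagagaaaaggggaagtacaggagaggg
LILRA5: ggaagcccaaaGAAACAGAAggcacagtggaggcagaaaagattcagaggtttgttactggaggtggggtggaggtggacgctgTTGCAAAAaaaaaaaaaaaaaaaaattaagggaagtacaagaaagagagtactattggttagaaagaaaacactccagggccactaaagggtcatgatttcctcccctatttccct

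Over the 10 pairs of these stretches, the identity of aligned bases ran from 70.5% to 93.1%, with a median of 74.4%. LILRA1 and LILRB1 were the closest pair, with 163 identical of 175 aligned bases, followed by LILRB2 and LILRB1 at 89.8% and LILRB2 and LILRA1 at 88.1%. The pairs with LILRA5 or LILRA2 stood further off, at 70.5% to 77.7%, and those with LILRA5 aligned over 112 to 137 bases only. Of the 5 stretches, that of LILRA5 alone held a match, 1 to the IRF word and 1 to the CEBP word.

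ATRA libraries held more LILR peaks than control libraries. ATRA replicate 1 had 16 peaks in the windows, ATRA replicate 2 had 28, control replicate 1 had 7 and control replicate 2 had 9. Both ATRA libraries lay above both control libraries, with means of 22 ± 8.49 and 8 ± 1.41 (SD, n = 2 each), a difference of 14 peaks or 2.75-fold. The two-sided exact permutation test over the 6 ways to choose 2 of 4 libraries gave p = 0.333, the smallest value that 2 against 2 libraries allow, so no comparison between the groups could pass 0.05.

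The stretch covered by these peaks came to 6741 bp (ATRA replicate 1) and 14527 bp (ATRA replicate 2), while the control libraries reached 2547 bp and 2809 bp. That was 3.97-fold more in the ATRA group (exact permutation p = 0.333), with ATRA replicate 2 far above the others. The lists differed in length too, with 43494, 63541, 42081 and 45903 peaks in the same order, and the read depth behind them is unknown. Per 10000 peaks of its list, each library held 3.68, 4.41, 1.66 and 1.96 LILR peaks, which was 2.23-fold more in the ATRA group (exact permutation p = 0.333).

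Chromosome 19 as a whole moved the same way. It held 3.54% and 2.9% of the peaks in the ATRA libraries and 2.42% and 2.11% in the control libraries, 1.42-fold more in the ATRA group, and among the 24 chromosomes it had the highest such ratio, ahead of chromosome 21 at 1.32. Against chromosome 19 alone, LILR peaks made up 1.04, 1.52, 0.688 and 0.931 per 100 peaks. The groups still did not overlap on this scale, but the ratio was 1.58 in place of 2.23 (exact permutation p = 0.333), and ATRA replicate 1 lay close to control replicate 2.

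**Figure D1:**
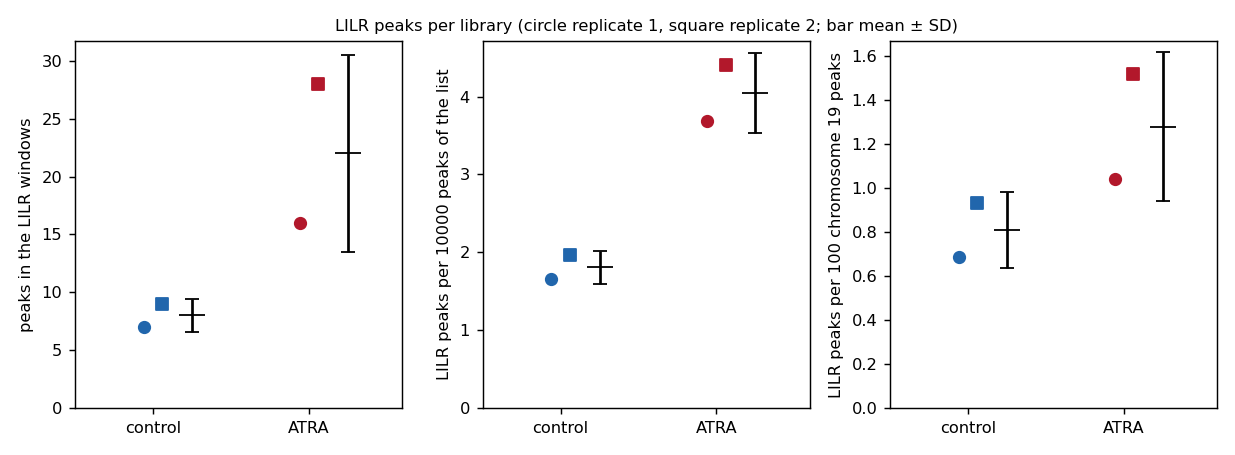
LILR peaks in each library, as a number (left), per 10000 peaks of the list (middle) and per 100 chromosome 19 peaks (right); points are libraries, bars the mean ± SD (n = 2). The 2 ATRA libraries lie above the 2 control libraries in each panel, and the gap between 1.04 and 0.931 on the right is the narrowest.

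The first window, which carries LILRB3, LILRA6, LILRB5, LILRB2, LILRA5 and LILRA4, held most of the peaks: 14 and 21 in the ATRA libraries and 6 and 7 in the control libraries (exact permutation p = 0.333). The second window, with LILRA2, LILRA1, LILRB1 and LILRB4, held 2 and 7 against 1 and 2, and there the groups touched (exact permutation p = 0.667). Between the windows lie 194.0 kb with no LILR gene of the list, and this stretch held 14 regions, of which 1 had a peak in both ATRA libraries and no control library and 4 had a peak in every library.

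**Figure D2:**
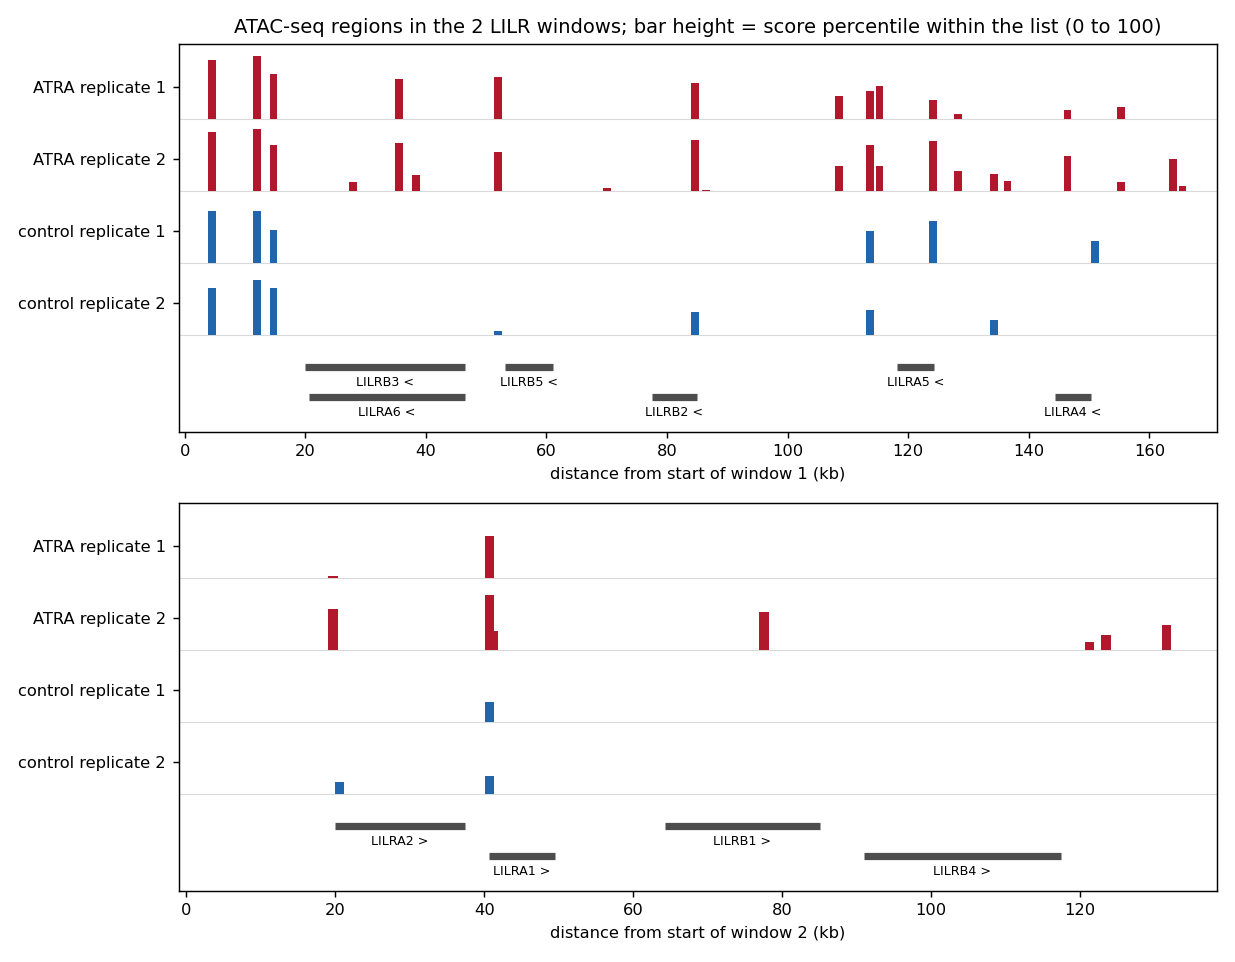
Regions along the 2 LILR windows, with the distance from the window start in kb on the horizontal axis and 1 track per library; bar height is the score percentile of the peak within its list, and grey bars are the receptor genes with their strand. Red ATRA tracks hold bars between LILRB2 and LILRA4 that the blue control tracks lack, and ATRA replicate 2 alone holds the bars beyond LILRB1.

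Of the 30 regions, 7 (23.3%) had a peak in both ATRA libraries and in neither control library, and 0 had a peak in both control libraries and in neither ATRA library. Over all regions, these shares were 8.94% and 3.37%. On chromosome 19 alone they were 17.8% and 0.792% of 2147 regions, so the LILR share stood close to that of its chromosome. A further 5 regions (16.7%) had a peak in every library, against 30.3% of all regions and 29% on chromosome 19. Another 12 regions (40%) had a peak in a single ATRA library and no control library, against 22.9% of all regions and 26.4% on chromosome 19, and all 12 were in ATRA replicate 2, which also had the longest list. The last 6 regions comprised 4 with other mixtures and 2 in a single control library.

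**Figure D3:**
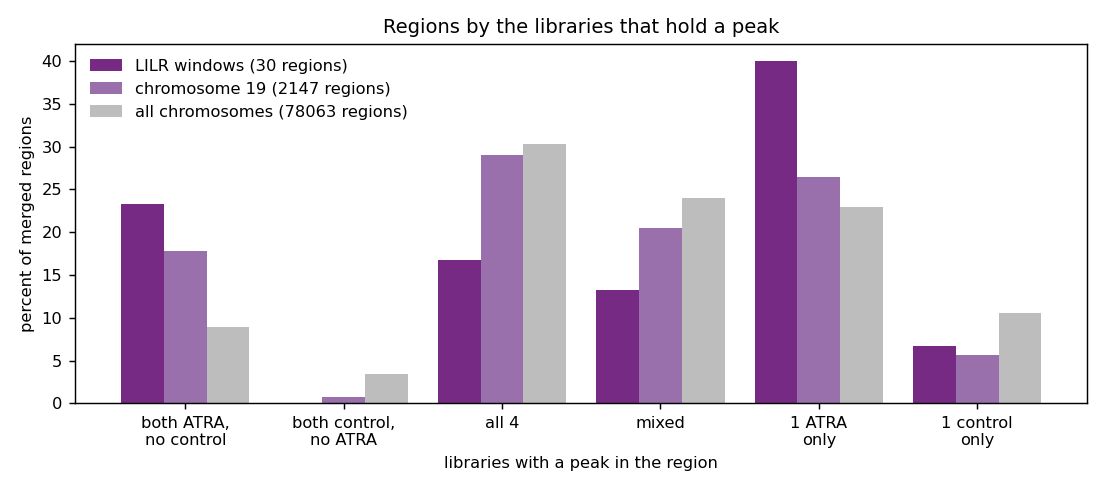
Share of merged regions, in percent, by the libraries that hold a peak, for the LILR windows, chromosome 19 and all chromosomes. The share open in both ATRA libraries and no control library was 23.3% in the LILR windows, 17.8% on chromosome 19 and 8.94% over all chromosomes.

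Leaving out ATRA replicate 2, 8 regions had a peak in ATRA replicate 1 and in no control library. Leaving out ATRA replicate 1 instead, the number was 19. By the rule of convincing peaks, those found in both replicates of a group, the windows held 15 in the ATRA group and 5 in the control group. Of the 15, 10 overlapped no convincing control peak, against a background of 37.3% over all chromosomes and 52.6% on chromosome 19. Of the 5 in the control group, 0 lacked an overlap with a convincing ATRA peak, against 23.7% and 6.69%. A single control peak does not count as convincing, which is why the starts of LILRB2 and LILRA5 are among the 10.

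The 7 regions with peaks in the ATRA libraries alone were ranked by score percentile, the share of peaks in the same list with a score at or below that of the peak. Their median percentile was 19.4 in ATRA replicate 1 and 39.2 in ATRA replicate 2, below the medians of all 6976 such regions (32.8 and 43.8). All 7 were wider in ATRA replicate 2, and 5 of the 7 ranked higher there. Of the 7, 6 lay in the first window and 6 lay away from any protein-coding start.

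The highest ranked of them, chr19:54735434-54735871, lies within the overlapping annotations of LILRB3 and LILRA6. Its peak was 360 bp wide at percentile 62.1 in ATRA replicate 1 and 438 bp wide at percentile 74.3 in ATRA replicate 2. The other 6 ranked lower than this in each ATRA library.

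Near LILRA5, an activating receptor of monocytes and neutrophils, there were 3 such regions. The region chr19:54808389-54808827, 15.7 kb downstream of the start, had percentiles of 36.5 and 39.2. The region in an unprocessed pseudogene, 8.95 kb downstream of the start, had percentiles of 51.2 and 39. The region chr19:54828073-54828622, 3.91 kb upstream of the start and in a long non-coding RNA gene, stood near the foot of the list in ATRA replicate 1 (percentile 7.57) and at 31.7 in ATRA replicate 2.

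LILRA4, a receptor known from plasmacytoid dendritic cells, had 2 such regions close by. The region in its intron had percentiles of 15.2 and 54.8. The region chr19:54855188-54855557, 4.94 kb upstream of its start, had percentiles of 19.4 and 14.6. The last of the 7, chr19:55083660-55084588, covers the start of LILRA2 and is taken up with that gene.

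The central 200 bases of the first of the regions near LILRA5, a stretch with no annotated exon at chr19:54808508-54808707, are given on the plus strand as an example of what was open in the ATRA libraries alone. Capitals again mark a match, here to the IRF word.
LILRA5 distal: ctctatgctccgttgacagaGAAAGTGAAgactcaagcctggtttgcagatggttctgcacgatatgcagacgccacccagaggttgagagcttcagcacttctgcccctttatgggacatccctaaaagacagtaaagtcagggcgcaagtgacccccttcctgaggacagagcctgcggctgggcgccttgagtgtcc

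By gene, 6 of the 10 receptors (LILRB3, LILRA6, LILRB5, LILRA5, LILRA4 and LILRA2) had a region open in the ATRA libraries alone in the gene or within 20 kb, against 27.1% of all protein-coding genes and 35.8% of the 1480 on chromosome 19. The receptors are not independent here, since LILRB3, LILRA6 and LILRB5 share 1 region and LILRA5 and LILRA4 share another. No receptor (0 of 10) had a region open in the control libraries alone, against 10.6% of all genes. That share is not given here for chromosome 19 genes. Among regions, however, this class made up 0.792% on chromosome 19 and 3.37% over all chromosomes. Its absence is therefore not particular to the receptors.

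A promoter was taken as 1 kb before to 100 bp after a protein-coding start. A promoter peak was present in ATRA replicate 1 for 4 receptors, in ATRA replicate 2 for 6, in control replicate 1 for 2 and in control replicate 2 for 3. Receptors with a promoter peak in both ATRA libraries numbered 4 (LILRB2, LILRA1, LILRA2 and LILRA5), and LILRA1 alone had a promoter peak in both control libraries. For 3 receptors (LILRB4, LILRB5 and LILRA6) no library had a promoter peak. No share over all genes is given here for these counts. ATRA replicate 2 also had the longest list, and chromosome 19 held 1.42-fold more of the peaks in the ATRA group. Whether the counts set the receptors apart from other genes cannot be told without a share over all genes.

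**Figure D4:**
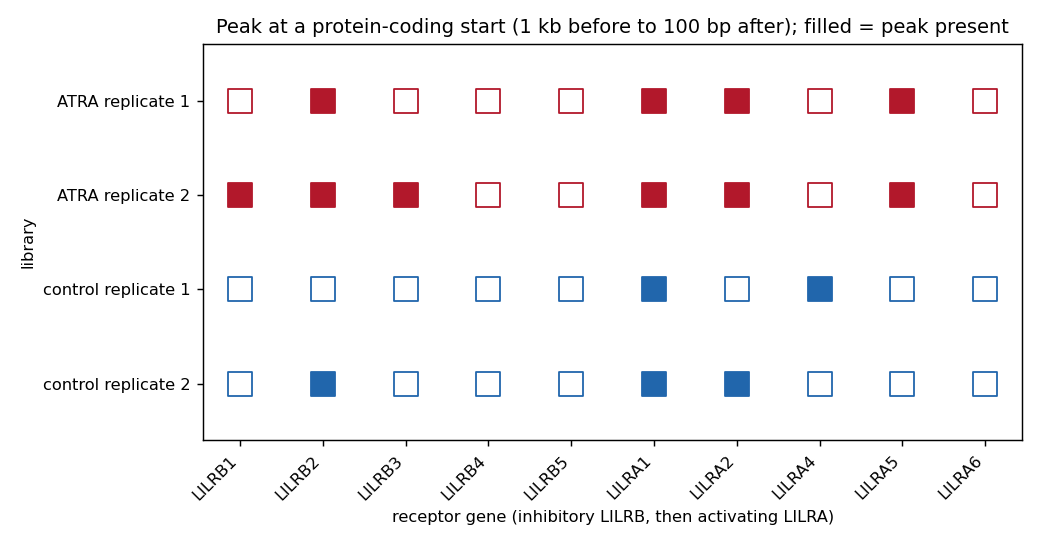
Presence of a peak at a protein-coding start of each receptor (horizontal axis) in each library (vertical axis); filled squares mark a peak. LILRA1 is filled in all 4 libraries, LILRA5 in the 2 ATRA libraries, and LILRB4, LILRB5 and LILRA6 in no library.

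Among the inhibitory receptors, LILRB2, which binds class I HLA, had the clearest start peak. The region chr19:54784269-54785206, over its start, held a peak of 433 bp at percentile 55.8 in ATRA replicate 1, 907 bp at 78.8 in ATRA replicate 2 and 223 bp at 34.7 in control replicate 2, and no peak in control replicate 1. The peak was thus wider and better ranked in both ATRA libraries than in the control library that had it.

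LILRB1, the broadly expressed class I HLA receptor, had a single region within 20 kb, chr19:55141780-55142189 at the start shown above, and it held a peak in ATRA replicate 2 alone (410 bp, percentile 58.8). LILRB3, which is found on neutrophils and monocytes, likewise had its promoter peak in ATRA replicate 2 alone, 0.729 kb before an internal start (293 bp, percentile 15). LILRB4, a monocytic receptor, had 4 regions within 20 kb, all of them in ATRA replicate 2 alone and none at its starts. LILRB5 had 4 regions within 20 kb and 0 in the gene itself. For these 4 genes no promoter peak was seen in more than 1 library.

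In the genome build used, the annotated bodies of LILRB3 (chr19:54720147-54746602) and LILRA6 (chr19:54720737-54746649) cover nearly the same bases, so peaks there cannot be given to either gene. LILRA6 encodes an activating receptor whose extracellular part is close to that of LILRB3. Both genes had the same 7 regions within 20 kb, with 5 and 7 peaks in the ATRA libraries and 3 and 4 in the control libraries.

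Among the activating receptors, LILRA1, which also binds class I HLA, was the only receptor with a promoter peak in every library. The region chr19:55104822-55105386 had score percentiles of 65.4 and 85.9 in the ATRA libraries and of 30.4 and 28.1 in the control libraries. Its peaks were 522 and 470 bp wide in the ATRA libraries and 245 and 357 bp wide in the control libraries. The groups did not overlap in rank or width. Among all regions with a peak in every library, both ATRA values lay above both control values in 29.2% for rank and 37.1% for width. On chromosome 19 these shares were 76% and 78.1%, so the pattern is common there. The mean percentile at LILRA1 was 46.4 points higher in the ATRA group, the widest gap of the 5 regions with a peak in every library. Ranked among chromosome 19 peaks only, its percentiles were 56.2 and 79 against 27.6 and 34.4, and the groups still did not overlap. The share of chromosome 19 regions that stand apart on this scale is not given here.

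LILRA5 had a promoter peak in both ATRA libraries and in no control library, a pattern found at 2.16% of all protein-coding genes. The share on chromosome 19 alone is not given here. Regions open in the ATRA libraries alone made up 17.8% there against 8.94% over all chromosomes, and the neighbouring gene TARM1 showed the same promoter pattern. The broader region, chr19:54823686-54824695, was not limited to the ATRA group. It held 2 peaks of 517 bp in sum (best percentile 29.4) in ATRA replicate 1, a peak of 1010 bp at 77.5 in ATRA replicate 2 and a peak of 374 bp at 65.2 in control replicate 1. The control peak ended 56 bp short of the promoter interval and 157 bp from the nearest start, and it ranked above the peaks of ATRA replicate 1. Control replicate 2 had no peak anywhere in this region. For control replicate 1, the lack of a promoter peak at LILRA5 thus rested on where the peak edge fell, and for control replicate 2 it did not.

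At LILRA2, which encodes a receptor for cleaved immunoglobulins, the region chr19:55083660-55084588 was open in the ATRA libraries alone, but the peak in ATRA replicate 1 was near the foot of its list (277 bp, percentile 3.07), while that in ATRA replicate 2 was 929 bp wide at percentile 63.8. Control replicate 2 had a separate peak of 175 bp at percentile 17.6 inside the gene, chr19:55084892-55085066, which also counts as a promoter peak. LILRA4 showed the reverse, a promoter peak of 277 bp at percentile 34.8 in control replicate 1 and none in the other libraries.

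Of the 5 regions with a peak in every library, 1 lies at the start of RPS9, a ribosomal protein gene, 2 lie in the extended annotated span of RPS9 but outside its protein-coding transcripts, 1 lies in the pseudogene next to LILRA5 and 1 is the LILRA1 start. The median percentile over the 5 was 69.8 and 85.9 in the ATRA libraries and 50.6 and 71.9 in the control libraries. These ranges overlapped, with a difference of 16.6 points (exact permutation p = 0.667).

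Both ATRA percentiles lay above both control percentiles in 3 of the 5, the RPS9 start, a region downstream of it and the LILRA1 start, against 29.2% of all regions of this class and 76% of the 622 on chromosome 19. Both ATRA peaks were wider than both control peaks in 5 of 5, against 37.1% and 78.1%. Chromosome 19 ranked the highest of the 24 chromosomes in the first share, followed by chromosome 22 at 51.3%. The LILR regions therefore showed no larger share than their chromosome in rank.

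At the RPS9 start, chr19:54704227-54705211, the percentiles were 92 and 91.7 in the ATRA libraries and 80.4 and 71.9 in the control libraries. Beyond the protein-coding transcripts of RPS9, chr19:54711544-54712598 had 98.2 and 96.7 against 81.1 and 84.1, and was the best ranked of the 30 regions in every library. The other region there, chr19:54714411-54715319, had 69.8 and 71.7 against 50.6 and 72.8. At the pseudogene, chr19:54813498-54814101, they were 44.5 and 71.9 against 49 and 37.7. The groups stood apart at the RPS9 start and at the first region beyond RPS9 and overlapped at the other two.

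**Figure D5:**
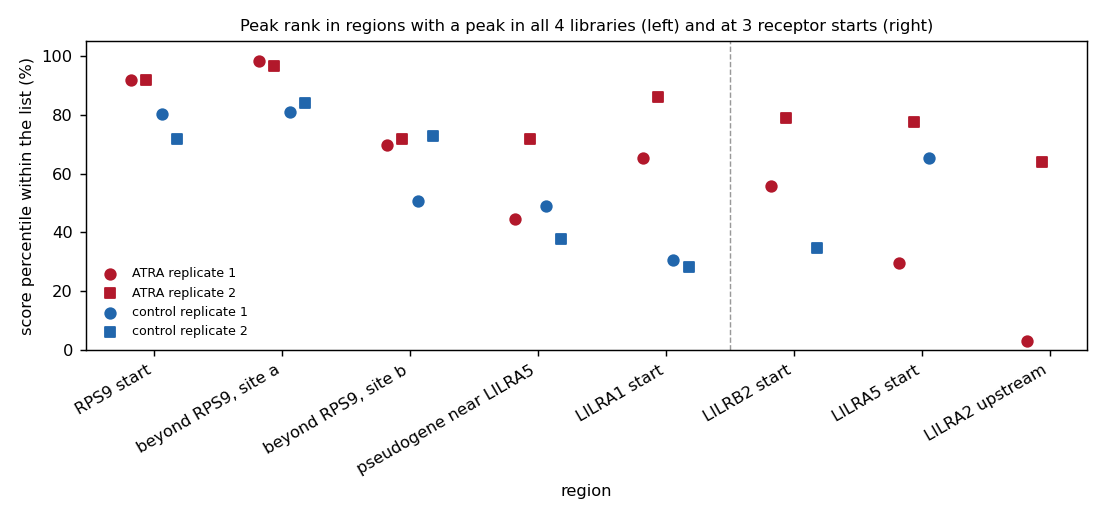
Score percentile within each list for the 5 regions with a peak in every library (left of the dashed line) and for the starts of LILRB2, LILRA5 and LILRA2 (right), with 1 point per library that held a peak. At the LILRA1 start the ATRA points (65.4 and 85.9) lie above the control points (30.4 and 28.1), and at LILRA5 the control point (65.2) lies between the ATRA points.

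Because reads from near-identical genes cannot always be placed, the share of 31-base words that occur once in the genome was taken for each region. The median over the 30 LILR regions was 87.3%, and 11 of them (36.7%) fell under 80%, against 10.1% of the regions on chromosome 19. The start regions of LILRA1 (63.9%), LILRB2 (67%), LILRA2 (67.1%) and LILRB1 (56.8%) were among the 11, and that of LILRA5 (94.4%) was not. The region 0.729 kb before an internal LILRB3 start, which lies in an intron of the overlapping LILRB3 and LILRA6 annotations, had 8.75% unique words.

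Of the 30 regions, 8 had another match in the cluster that was at least 90% identical and covered at least 50% of the region. The LILRB2 start region matched the LILRA1 gene start at 94% identity over 938 aligned bases, and the LILRA2 region matched a stretch inside the LILRB3 and LILRA6 annotations, around that intron region, at 97.9% over 566. Of the 7 regions open in the ATRA libraries alone, 5 had at least 80% unique words, among them the region in LILRB3 and LILRA6 at 100.0%. How reads with several matches were handled is not given in the sources used here, and its part in the peaks was not tested.

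Words of transcription factors were searched on both strands in the central 200 bp of each region. The nuclear receptor word AGGTCA, which is the unit bound by retinoic acid receptors and many others, was found in 9 of the 30 LILR regions (30%), against 11.2% of all regions and 11.1% on chromosome 19. It was present in 1 of the 7 regions open in the ATRA libraries alone, the one 3.91 kb upstream of LILRA5, and in 15.8% of all regions of that class. Some of the 9 LILR regions with the word had a peak in ATRA replicate 2 alone, and some had under 80% unique words. Regions of a duplicated cluster are not independent, and the 30% was not tested.

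Each of the other words was found in 0 to 3 LILR regions. The PU.1 word GAGGAAGT was in 3.33% of them (8.94% of all regions and 5.22% on chromosome 19), and the AP-1 word TGANTCA was in 0 (8.32% and 5.54%). The CEBP word TTGCNNAA, the RUNX word AACCACA, the IRF word GAAANNGAA and the CTCF consensus were in 6.67% each, against 12.3%, 8.55%, 8.08% and 5.87% of all regions and 7.22%, 5.59%, 5.26% and 7.36% on chromosome 19. The GATA word AGATAA was in 10% (11.5% and 5.45%). With 30 regions, a single region makes 3.33%, so these shares lay within 2 regions of those on chromosome 19. No word contains another, and a match describes letters, not binding. The central GC content was 52.8% at the median of the 30 regions, between 47.5% over all regions and 59% on chromosome 19.

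Of 8 signalling partners, 4 (FCER1G, SYK, the kinase gene LYN and INPP5D, which encodes the lipid phosphatase SHIP-1) had a promoter peak in every library, and 0 had one in the ATRA libraries or the control libraries alone. PTPN6, the SHP-1 gene, had a promoter peak in all but control replicate 2, and the SRC family kinase gene FGR had one in ATRA replicate 2 alone. A region open in the ATRA libraries alone lay in or within 20 kb of 7 of the 8, and a region open in the control libraries alone near 1, LYN. Among all protein-coding genes, 27.1% had such an ATRA region and 10.6% such a control region. The list was chosen with earlier results known and gene length was not matched, so the 7 of 8 is given as a count only. A promoter peak in the ATRA libraries alone was found at 2.16% of all protein-coding genes. The share with a promoter peak in every library is not given here.

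Among the ligand genes, HLA-C, HLA-E and B2M, the shared light chain of class I molecules, had a promoter peak in every library. HLA-B had one in all but control replicate 1, and HLA-F, HLA-G and ANGPTL2 had none. None of these 7 had a promoter peak in both libraries of a single group alone. Of the 8 ligand genes listed, 3 lay within 20 kb of a region open in the ATRA libraries alone and 1 near a region open in the control libraries alone. Over all protein-coding genes these shares were 27.1% and 10.6%, so the counts do not set the ligand genes apart.

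Of 21 neighbouring genes, 12 had a promoter peak in every library, including LAIR1, a collagen receptor, and OSCAR, a receptor that also pairs with the Fc receptor gamma chain. TARM1, an activating receptor of myeloid cells, had one in both ATRA libraries and in no control library. A region open in the ATRA libraries alone lay within 20 kb of 10 of the 21 and one open in the control libraries alone near 0. For the ATRA libraries the share of chromosome 19 genes was 35.8%. For the control libraries the share of all protein-coding genes was 10.6%, and that of chromosome 19 genes is not given here. No share over all genes is given for a promoter peak in every library, so the 12 cannot be called high or low.

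Of 9 markers of promyelocytes and granulocytes, SPI1, CD33, CEBPE and ITGAM had a promoter peak in every library, MPO, PRTN3 and CSF3R in some, and ELANE and AZU1 in none. The markers CD3E, MS4A1, GATA1, HBB, ALB and EPCAM of other cell types had none in any library. Regions open in the ATRA libraries alone lay near 3 of the 9 myeloid markers and 2 of 7 markers of other types, and regions open in the control libraries alone near 2 and 1. Over all protein-coding genes these shares were 27.1% and 10.6%, and with so few genes the counts do not set the markers apart. The labelled cell type thus matched the markers in part, with the elastase and azurocidin genes the exceptions.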

How the data were processed

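ATAC-seq peak lists of 2 ATRA and 2 control libraries were analysed, grouped by their titles. Per the labels and the methods, the authors removed adapters (cutadapt is named in the submitters' processing notes, with Bowtie2, MACS2 and MACS), aligned reads to hg19 and called peaks in each library with MACS2 at default settings. Each deposited list gives a position, a name and a score per peak; the deposited score, from 50 to 3100, has no stated scale and was used only as a rank within its list. A shift to the Tn5 cut site, the handling of duplicates and multiply placed reads and the read depth are not given in the sources used here, so peak edges may be some bases off and no counting interval could be set.

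The 10 receptors were located in GENCODE release 44 lifted to GRCh37. Overlaps of 1 bp, regions, percentiles and exact permutation tests were computed in Python 3.11.15 with numpy 2.4.6 and tested on simulated data with 3000 regions. Sequences were read with pysam 0.24.0 and samtools 1.23.1, aligned with Biopython 1.88 and searched against the cluster with BLAST 2.17.0 (matches of at least 100 bp). Figures used matplotlib 3.10.9. All 10 receptors, all regions of a single group or of every library, and all regions at receptor starts were named; other gene lists were given as counts. A few genes and sequences of these lists and regions are not reported here. The members and lists were chosen with earlier results of these data known. Alternatives changed the flank, the peaks kept, the peak width, the overlap and the libraries.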

Additional observations from a re-analysis of the deposited data

How the results depend on the processing

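The differences in peak number, base pairs and median percentile kept their direction under every alternative run, and none passed a test, as the design cannot. With each library left out in turn, the peak difference lay between 8, when ATRA replicate 2 was dropped, and 20, when ATRA replicate 1 was, the base pairs from 4063 to 11849 and the percentile difference from 8.62 to 34.8. With the replicate block, which pairs libraries of the same number, these differences were 14 peaks, 7956 bp and 16.6 points (exact sign-flip p = 0.5 each, the smallest for 2 pairs). No label says that the numbers pair libraries, and the replicate differences in percentile of the 2 groups correlated at r = 0.211 over 23653 shared regions.

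Regions open in the ATRA libraries alone numbered 3 in gene bodies without flanks and 4 in the better-scored part of each list, against 7, and from 8 to 19 with a library left out. Convincing peaks of the ATRA group alone numbered 5 and 4 under the same settings, against 10, and from 8 to 23. Control-specific convincing peaks numbered 1 with 50 kb flanks and 1 with peaks set to 200 bp, against 0, and from 0 to 2 with a library left out. Regions open in the control libraries alone ranged from 0 to 1. The cause was not tested, apart from fewer bases or fewer peaks entering by construction. An equal number of top-scored peaks per library gave a difference of 8 peaks and 5 regions. The chromosome 19 scale and the filter on unique words (5 regions) were chosen after seeing the data. Unknown depth limits every presence call.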
